A study of Homo sapiens with 6 samples.

Results

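The metallothionein genes MT1A, MT1E, MT1F, MT1G, MT1H, MT1M, MT1X and MT2A were examined in BT-549, a human line from a triple negative breast tumour, after culture in adipocyte-conditioned medium (ACM) or unconditioned medium (UCM). These 8 genes were found by symbol among the 63140 genes in the tables, 7 of them had at least 1 count in some culture, and 5 passed the filter on low counts. RNA of wild-type cells, which carried no transgene, was sequenced from 3 cultures in ACM and 3 in UCM, each grown for 24 h. According to the supplementary methods, ACM was collected from OP9 cells, a mouse line, while they turned into adipocytes, and contained insulin, oleate and albumin. The sample labels give 50% ACM for these cultures and the supplement gives undiluted ACM. BT-549 cells were otherwise maintained in RPMI-1640 with serum and insulin, and the formula of UCM is not given in the sources used here, so adipocyte secretions and base medium cannot be told apart.

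Metallothioneins are small, cysteine-rich proteins that bind zinc, copper and cadmium. They buffer free zinc in the cell and bind toxic metals and oxidants. Their genes are known to be switched on by zinc through MTF1, a transcription factor that binds short metal response elements (MREs) in their promoters, and also by glucocorticoids, cytokines and oxidative stress. MT2A and the MT1 genes encode closely related proteins, and the MT1 genes arose by duplication.

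Total expected counts, the reads that RSEM assigns to genes, lay between 17135288 and 21053257 per culture. Counts were scaled to CPM (counts scaled to the size of each library, with TMM normalization) and 14451 genes were compared with edgeR's quasi-likelihood test, with p-values adjusted by the Benjamini-Hochberg method over all of them. Calls were made where the adjusted p-value did not exceed 0.05. The median log2 FC of ACM over UCM across all genes tested was -0.011. Although the labels call the cells epithelial, the 7 epithelial markers examined summed to 1.30 to 1.96 CPM in ACM and 1.61 to 2.80 CPM in UCM, whereas the mesenchymal markers VIM, FN1, CDH2 and ZEB1 summed to 4427 to 4954 CPM in ACM and 4117 to 4299 CPM in UCM. ESR1 and PGR had no count in any culture. ERBB2, the other receptor gene examined, had 1253 to 1564 counts per culture. It was not called (edgeR log2 FC 0.12, adjusted p = 0.408). Of 6 adipocyte markers, ADIPOQ, LEP and CIDEC had no count in any culture, and the sum of all 6 was 2.08 to 3.10 CPM in ACM and 1.40 to 1.92 CPM in UCM. Among the immune and endothelial markers, CD68, a lysosomal protein abundant in macrophages, was higher in ACM (edgeR log2 FC 1.76, adjusted p = 0.0335), while PTPRC had 3 to 6 counts in each culture. The part of these markers in the metallothionein results was not tested. UCM replicates 2 and 3 were more alike (chi-square per gene 2.32) than the other pairs of replicates within a group (13.1 to 21.5), but differed by more than the sampling noise.

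All 8 genes lie within 75.6 kb on chromosome 16 of GRCh38, chr16:56608584-56684196 in GENCODE 44, in the order MT2A, MT1E, MT1M, MT1A, MT1F, MT1G, MT1H and MT1X. MT1G is on the minus strand and the other 7 are on the plus strand. Each is protein-coding, with 3 exons in its canonical transcript except for MT1E, which has 2. The RefSeq promoter table (GRCh38.p14) holds MT2A, MT1H and MT1X, while MT1A, MT1E, MT1F, MT1G and MT1M have no entry. The 250 bases before the start of each of the 3 genes are shown because they place the known metal response element beside genes with very different levels, from the most abundant member to a member with no count. Capitals mark matches to the MRE letters TGCACNC or TGCGCNC on either strand. The windows are chr16:56608334-56608583 for MT2A, chr16:56669564-56669813 for MT1H and chr16:56682220-56682469 for MT1X, all on the plus strand.
MT2A: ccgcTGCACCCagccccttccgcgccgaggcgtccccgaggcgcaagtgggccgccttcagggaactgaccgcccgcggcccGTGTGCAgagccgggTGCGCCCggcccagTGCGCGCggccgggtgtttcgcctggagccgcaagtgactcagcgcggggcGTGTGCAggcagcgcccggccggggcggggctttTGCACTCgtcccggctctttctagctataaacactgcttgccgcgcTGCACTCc
MT1H: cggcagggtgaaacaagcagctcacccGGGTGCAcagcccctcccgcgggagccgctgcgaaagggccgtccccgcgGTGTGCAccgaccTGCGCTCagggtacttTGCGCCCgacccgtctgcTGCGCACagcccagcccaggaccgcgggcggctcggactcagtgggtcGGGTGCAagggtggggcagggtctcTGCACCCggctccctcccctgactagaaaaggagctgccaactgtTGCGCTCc
MT1X: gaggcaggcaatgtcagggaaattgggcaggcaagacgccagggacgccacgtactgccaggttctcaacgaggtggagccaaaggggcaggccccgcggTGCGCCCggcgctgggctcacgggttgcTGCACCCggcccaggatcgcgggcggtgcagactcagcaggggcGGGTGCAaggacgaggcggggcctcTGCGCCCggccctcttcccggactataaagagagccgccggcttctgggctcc
MT2A had 7 matches, MT1H 8 and MT1X 4, with no match overlapping another. Of 35116 promoters of the same length in the table, 24.8% held at least 1 match, 0.370% at least 4 and 0.0313% at least 7. In MT2A and MT1X a TATAAA began 29 and 30 bases before the start, and MT1H had no match to these letters, which 10.7% of all promoters held on either strand. A match is a description of the letters and does not show binding.

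MT2A, the main metallothionein of most tissues, was the most abundant member in every culture and rose about 4-fold in ACM. It had 943, 1719 and 1160 CPM in ACM replicates 1, 2 and 3 and 370.1, 297 and 255 CPM in UCM replicates 1, 2 and 3. Every ACM culture was above every UCM culture, with ACM replicate 2 the highest. The mean was 1274 ± 400.1 CPM under ACM against 307 ± 58.5 CPM under UCM (SD, n = 3), which edgeR fitted as 4.15-fold (log2 FC 2.05, SE 0.26, adjusted p = 0.0129). On the TPM scale, which divides by transcript length, MT2A had 10691, 19194 and 13182 TPM in ACM and 4433, 3391 and 2857 TPM in UCM. It ranked 2, 1 and 1 by TPM among all genes of the ACM cultures, and 18, 28 and 34 in the UCM cultures. By TPM the transcript was thus among the most abundant of these cells in UCM and at or next to the top in ACM. By CPM, which is not divided by length, VIM had a higher mean in ACM (3168 CPM) than MT2A.

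MT1X, MT1E and MT1F, ubiquitous members of the MT1 group, also rose in ACM. MT1X had 45.2, 100.5 and 69.7 CPM in ACM and 14.8, 15.8 and 14.6 CPM in UCM. The UCM cultures lay close together and the ACM cultures spread over a wider range above them. The means were 71.8 ± 27.7 and 15.1 ± 0.659 CPM (SD, n = 3), and edgeR fitted 4.76-fold (log2 FC 2.25, SE 0.30, adjusted p = 0.0146). MT1E had 65.7, 157 and 99.8 CPM in ACM and 11.8, 13.9 and 13.3 CPM in UCM. Here too the groups did not overlap, and the order of the ACM cultures was that of MT2A and MT1X, with replicate 1 lowest and replicate 2 highest. The means of MT1E were 108 ± 46.3 and 13 ± 1.07 CPM (SD, n = 3), and edgeR fitted 8.26-fold (log2 FC 3.05, SE 0.35, adjusted p = 0.0108). MT1F had 19.8, 49.5 and 29.4 CPM in ACM and 4.83, 4.57 and 3.85 CPM in UCM. This was again a gap between the groups, which edgeR fitted as 7.39-fold (log2 FC 2.89, SE 0.37, adjusted p = 0.0122). By TPM in UCM, MT1X (152 to 174) was above MT1E (44.2 to 48.7) and MT1F (36.9 to 49.0), and the latter did not differ beyond their spread. In ACM the TPM of MT1X was 479.8 to 1064, that of MT1E 235 to 562 and that of MT1F 189 to 464. The ranges of neighbours in this order overlapped between cultures, but within each ACM culture MT1X was above MT1E and MT1E above MT1F.

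MT1M was seen only in ACM. It had 43, 195 and 60 counts in ACM and none in any UCM culture, and ACM replicate 2 held 195 of its 298 counts. The mean in ACM was 5.43 ± 4.85 CPM (SD, n = 3). Taking 3 counts in each UCM culture as the limit that a count of 0 allows, the mean in ACM was at least 34.1-fold higher, at least 16.6-fold without ACM replicate 2, and at least 12.8-fold for the lowest ACM culture. With an adjusted p-value of 0.0672 from edgeR, MT1M was not called, and its fitted log2 FC is no measure of size because UCM was at 0. The call depended on the setting, since DESeq2 gave MT1M an adjusted p-value of 2.09e-06, and edgeR gave 0.00842 without ACM replicate 2, within a range of 2.09e-06 to 0.184 over all alternatives.

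MT1G, MT1A and MT1H were too low to be tested. MT1G had 3, 49 and 13 counts in ACM and 0 in every UCM culture. The mean of MT1G in ACM was at least 7.54-fold above the limit of 3 counts per UCM culture and at least 2.66-fold without ACM replicate 2, and the lowest ACM culture was at that limit. When every gene with a count was kept, 25486 genes were tested and MT1G was called (adjusted p = 3.37e-09 from edgeR), but it entered that test only through its ACM counts, 49 of 65 of them from replicate 2, and DESeq2 gave it no adjusted p-value. For MT1A there were 4, 11 and 10 counts under ACM against 2, 1 and 3 under UCM, or 0.451 ± 0.229 and 0.108 ± 0.0616 CPM (SD, n = 3). The ranges of MT1A lay next to each other, with the lowest ACM culture at 0.190 CPM and the highest UCM culture at 0.175 CPM, and MT1A was not called when every gene with a count was kept (adjusted p = 0.213 from edgeR). MT1H had no count in any of the 6 cultures, which allows up to 0.142 to 0.175 CPM per culture. These limits cover counting error only.

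**Figure D1:**
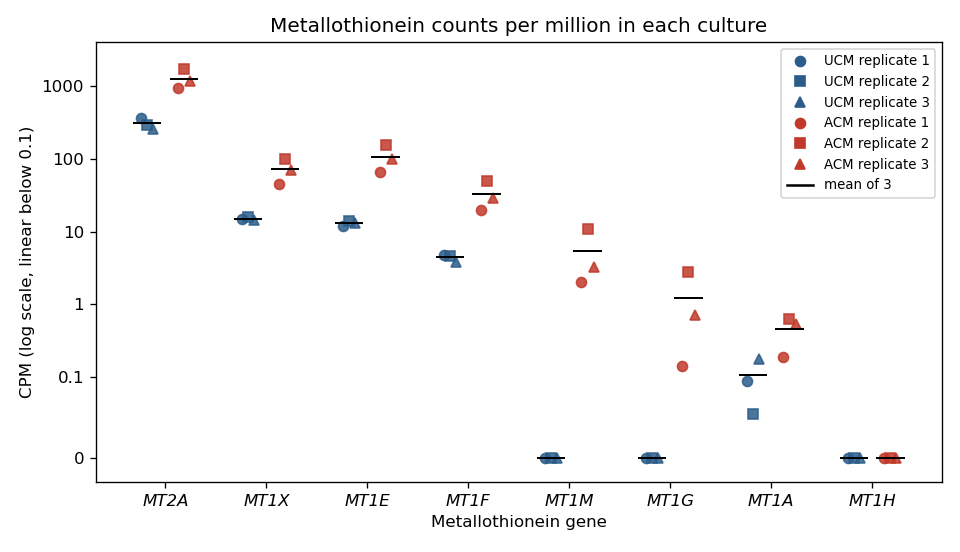
CPM of each metallothionein gene in the 3 UCM (blue) and 3 ACM (red) cultures, on a log axis that is linear below 0.1, with marker shapes for replicates and black lines for means of 3. ACM lay above UCM for every gene except MT1H, which had no count, and ACM replicate 2 was the highest culture for each of the other genes.

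Of the 5 members tested, 4 were called higher in ACM and 0 lower, while 3.35% of all genes tested were called higher and 2.21% lower. All 5 had an unadjusted p-value at or below 0.05 with a log2 FC of at least 0.58, which held for 4.12% of all genes tested. The 4 with counts in both groups had log2 FCs of 2.05 (MT2A), 2.25 (MT1X), 2.89 (MT1F) and 3.05 (MT1E). Each of the 5 had all ACM cultures above all UCM cultures, as did 13.9% of all genes tested. For MT1M the direction was fixed, since it had no count in UCM and passed the filter only through its ACM counts. The 8 genes together summed to 1076, 2040.2 and 1363 CPM in ACM and 402, 331 and 286 CPM in UCM, a ratio of means of 4.4. In TPM they made up 1.16%, 2.14% and 1.46% of all transcripts in ACM and 0.469%, 0.366% and 0.309% in UCM, so that metallothionein mRNA took a larger share of the total in each ACM culture. Since these are bulk samples, a change in the number of cells that hold these transcripts and a change in the amount per cell cannot be told apart.

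The increase of MT2A, MT1X, MT1E and MT1F remained without any 1 culture, whereas the calls did not. Over the 6 fits that each omitted a culture, MT2A had a log2 FC between 1.78 and 2.23, that of MT1X between 1.93 and 2.50, that of MT1E between 2.67 and 3.31 and that of MT1F between 2.47 and 3.16. Without ACM replicate 2, the culture with the most metallothionein mRNA, MT1E, MT1F, MT1M, MT1X and MT2A were all called, against 1.34% of all genes tested. Without UCM replicate 1 MT2A was the only member called, and without UCM replicate 2 or 3 none was, while 5.03%, 0.846% and 1.06% of all genes tested were called higher by edgeR. With no adjustment of the p-value (threshold 0.05), 6, 6 and 7 of the 7 members then tested were higher, against 14%, 8.64% and 9.68% of all genes, and these members included MT1G and MT1M, which had no count in UCM. The adjusted p-values of these 4 genes without 1 culture reached at most 0.0866, that of MT1X without UCM replicate 2.

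The levels of 3 MT1 genes with counts in both groups were also set against that of MT2A in the same culture, and none of these ratios passed a test. The log2 ratio of MT1E to MT2A (CPM with 0.5 count added) was -3.84, -3.45 and -3.54 in ACM and -4.96, -4.41 and -4.26 in UCM. MT1E had a mean ratio 0.93 higher in ACM on the log2 scale, with no overlap between the groups (two-sided exact permutation test, p = 0.10, the smallest that 3 against 3 can give, 0.15 after adjustment over the 3 ratios). The log2 ratio of MT1F to MT2A was -5.57, -5.12 and -5.30 in ACM and -6.25, -6.01 and -6.04 in UCM, a difference of 0.77 without overlap (exact permutation p = 0.10, 0.15 adjusted). For MT1M no test of the ratio is given, because its UCM counts were 0 and its UCM ratios hold only the count that was added. The log2 ratio of MT1X to MT2A was -4.38, -4.10 and -4.06 in ACM and -4.64, -4.23 and -4.12 in UCM. These groups overlapped, with a difference of 0.15 (exact permutation p = 0.50). The share of MT2A in the counts of all 8 genes was 87.6%, 84.2% and 85.1% in ACM and 92.1%, 89.6% and 88.9% in UCM.

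**Figure D2:**
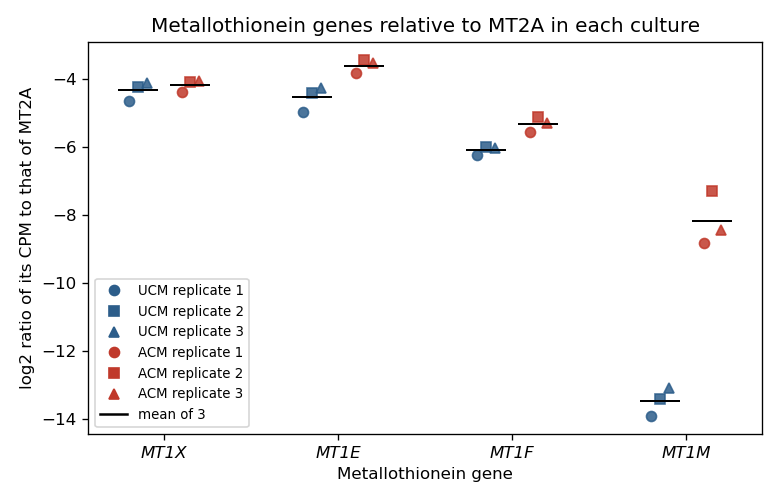
Log2 ratio of the CPM of MT1X, MT1E, MT1F and MT1M to that of MT2A in each culture, with 0.5 count added, colours for groups, shapes for replicates and black lines for means of 3. The ratios of MT1E and MT1F were higher in every ACM culture, those of MT1X overlapped between the groups, and the UCM points of MT1M stand for counts of 0 and show only the count added.

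Because the members are similar in sequence, the share of each gene's transcripts found in other genes was counted in GENCODE 44, whose transcripts for the 8 genes were those named in the files. Of windows of 50 bases, 4.48% of those of MT2A, 7.10% of MT1E, 1.24% of MT1F and between 5.76% and 18.7% of the other members were also in another gene, which was a metallothionein gene or pseudogene or, for some windows of MT2A and MT1X, an lncRNA (ENSG00000289942 and ENSG00000259827). Of windows of 100 bases, none was shared for MT2A, MT1E, MT1M, MT1A, MT1F and MT1G. The exceptions were MT1H, with 1.39% shared with MT1HL1, and MT1X, with 11.6% shared with ENSG00000259827, which overlaps it and had no count in any culture. The reads were paired and longer than these windows, and RSEM divides reads that fit several genes, so the values of similar members remain estimates. Effective lengths, the number of places where a fragment can start, were short, at 121 to 128 bases for MT2A and 128 to 137 bases for MT1X. For MT1M the effective length was 119 to 123 bases in ACM and 62.1 to 66.0 bases in UCM, and for MT1G it was 128 to 130.4 bases in ACM and 159 to 165 bases in UCM. Neither gene had a count in UCM, and CPM does not use these lengths.

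Few or no counts were assigned to other metallothionein genes and pseudogenes. Of 13 further symbols, MT3, a member known from brain, had 1 count in ACM replicates 1 and 2 and in UCM replicate 3, MT2P1 and MT1JP had 1 count each in a single ACM culture, and the others, including MT4 and MT1B, had none. The pseudogene models of MT1L, MT1CP, MT1DP, MT1IP and MT1JP (ENSG00000255986) have effective lengths of 0 to 2.55 bases in these tables, so their counts of 0 do not measure expression. An lncRNA that overlaps MT1L, ENSG00000291105, had 4, 12 and 6 counts under ACM against 1, 0 and 0 under UCM, too few to be tested, and was singled out after its values were seen.

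Genes around the metallothioneins did not rise to the same extent. The 12 genes tested within 500 kb on either side had a median log2 FC of 0.06 and ranged from -0.20 to 0.85, all below the lowest member at 2.05. Of these 12, 2 were called, both higher in ACM, beside 3.35% of all genes tested called higher. BBS2, a subunit of the ciliary BBSome that ends 26 kb before MT2A, was called (edgeR log2 FC 0.54, SE 0.11, adjusted p = 0.0259). NUP93, a nuclear pore protein that starts 46 kb after MT1X, was not (edgeR log2 FC -0.14, adjusted p = 0.249). HERPUD1, which takes part in the degradation of misfolded proteins of the endoplasmic reticulum and lies 248 kb away, was also called (edgeR log2 FC 0.85, SE 0.10, adjusted p = 0.00219). The distance was chosen after the values of the members were known.

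**Figure D3:**
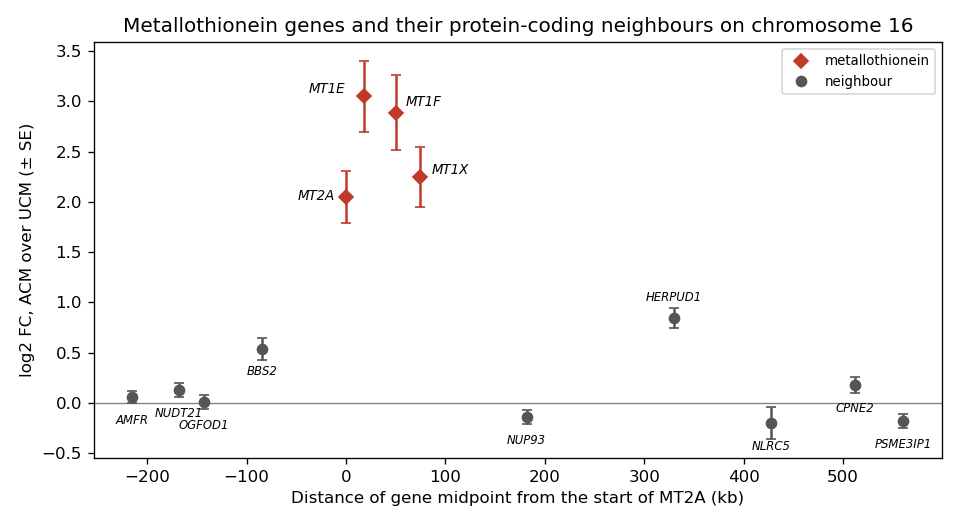
Log2 FC of ACM over UCM (points) with its standard error (bars) against the distance of each gene's midpoint from the start of MT2A, for the 4 called metallothionein genes (red diamonds) and the tested protein-coding genes within 500 kb (grey circles). The metallothionein genes lay between 2.05 and 3.05 and their neighbours between -0.20 and 0.85, and MT1M is left out because its UCM counts were 0.

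Genes that move zinc were examined next, since metallothioneins hold zinc and share MTF1 with some of them. Of 26 genes, the zinc transporters and MTF1, 18 were tested, 2 were called higher and 1 lower, with a median log2 FC of 0.07, beside 3.35% and 2.21% of all genes tested. SLC30A1, the zinc exporter of the plasma membrane and, like the metallothioneins, a known target of MTF1, had 52.1, 69.5 and 63.1 CPM in ACM and 38.3, 37.2 and 34.9 CPM in UCM. SLC30A1 rose in ACM without overlap, with edgeR giving log2 FC 0.74 (SE 0.11, adjusted p = 0.00499), and stayed called in each of 14 alternatives. SLC39A10, a zinc importer that MTF1 is known to hold down, had 27.8, 25.6 and 28.0 CPM in ACM and 44.9, 39.0 and 39.1 CPM in UCM. It was lower in each ACM culture, and edgeR gave log2 FC -0.60 (SE 0.09, adjusted p = 0.00687), but it was not called with effective length offsets (adjusted p = 0.0854) or with limma on log2 TPM (0.118 and 0.115). SLC39A14, an importer of zinc and iron that is known to respond to IL6, had 866, 1238 and 796 CPM in ACM and 563, 459 and 442 CPM in UCM, for which edgeR gave log2 FC 0.99 (SE 0.18, adjusted p = 0.0308), with adjusted p-values of 0.129 and 0.101 without UCM replicate 2 or 3. The mRNA of MTF1 itself stood at 25.2 ± 1.35 CPM under ACM against 22.6 ± 1.11 CPM under UCM (SD, n = 3) and was not called (edgeR log2 FC 0.15, adjusted p = 0.360). Some zinc transporters were too low to be tested, and these went in different directions. SLC30A2, a zinc transporter of vesicles, had 1, 7 and 4 counts under ACM against 0 under UCM. The ACM cultures held 4, 0 and 0 counts of SLC30A3, beside 6, 8 and 4 for the UCM cultures. No direction of the list is drawn from such low counts.

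**Figure D4:**
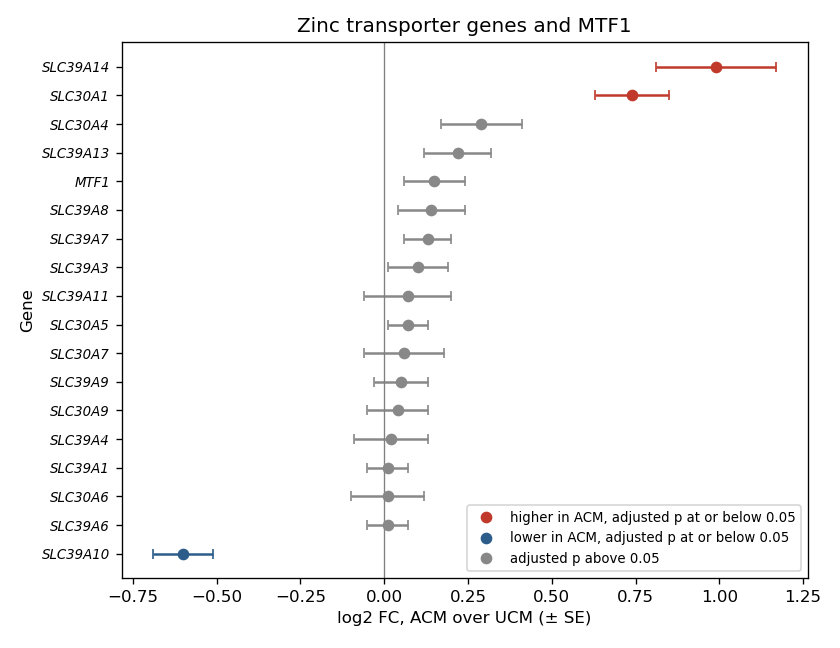
Log2 FC of ACM over UCM (points) with its standard error (bars) for the tested zinc transporter genes and MTF1, coloured by whether edgeR called the gene (threshold 0.05). SLC39A14 (0.99) and SLC30A1 (0.74) were higher and SLC39A10 (-0.60) was lower, while MTF1 and the remaining transporters lay between 0.01 and 0.29.

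Genes of other pathways known to act on metallothioneins were counted in the same comparison, in which 3.35% of all genes tested were called higher and 2.21% lower, so that 0 or 1 call in a list of this size is near the background. Of 8 copper handling genes tested, 0 were called in edgeR in either direction and 1, SLC31A2, was lower at an unadjusted p-value at or below 0.05. In DESeq2 none of these copper genes was called either. Of 8 glucocorticoid response genes tested, DUSP1 was called higher (log2 FC 0.53) and CRISPLD2 lower (log2 FC -1.13). At an unadjusted edgeR p-value at or below 0.05, 1 of the 8 was higher and 3 were lower. Their median log2 FC was -0.16. FKBP5 and PER1, both induced by the hormone, had log2 FCs of 0.02 and 0.05, and TSC22D3, SGK1 and KLF9 had -0.42, -0.22 and -0.11. The gene of the receptor, NR3C1, was at -0.25 (edgeR adjusted p = 0.0710). Of 9 tested genes of IL6 signalling, 3 were called higher, namely IL6 (2.75), the oncostatin M receptor OSMR (0.77) and the transcription factor CEBPD (1.23), whereas SOCS3, a feedback inhibitor of the pathway, had 0.15 (adjusted p = 0.644). All 9 had a log2 FC above 0, with a median of 0.15. Of 9 NRF2 and oxidative stress genes, the cystine transporter SLC7A11 was called (1.27), and HMOX1 and NFE2L2, the gene of NRF2, had 0.11 and 0.01. NQO1 had 0.22 (edgeR unadjusted p = 0.0407, adjusted p = 0.191). At an unadjusted p-value at or below 0.05, 2 of the 9 were higher and 0 lower. Of the 9, 8 had a log2 FC above 0, with a median of 0.11. Of 8 heat shock genes, HSPA8 (-0.37) and DNAJB1 (-0.31) were called lower and none higher. With an unadjusted edgeR p-value at or below 0.05, 4 of these were lower and 0 higher. In this list 7 genes had a log2 FC below 0, with a median of -0.17, and HSF1 had 0.09 (adjusted p = 0.407). Of these calls, those of CRISPLD2, OSMR and SLC7A11 held with every library left out in edgeR. IL6 was not called without UCM replicate 1, 2 or 3 (adjusted p = 0.0945, 0.169 and 0.179) or with every gene with a count kept (0.0841), CEBPD without UCM replicate 2 (0.0509), and DUSP1 without ACM replicate 2 or UCM replicate 2 (0.0825 and 0.117). HSPA8 was not called without ACM replicate 2, UCM replicate 2 or UCM replicate 3 (0.0610, 0.109 and 0.108), nor DNAJB1 without ACM replicate 2 or 3 or UCM replicate 2 or 3 (0.0961 to 0.175). DUSP1 and DNAJB1 were also not called with limma on log2 TPM or with effective length offsets (0.0514 to 0.0532 and 0.0818 to 0.119).

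The genes whose profile over the 6 cultures was most like that of MT2A were found from the distance between log2 CPM profiles, each centred on its own mean. The nearest were the chemokine CXCL1 at 0.26, the kynurenine pathway enzyme KYNU at 0.36, the hexosamine pathway enzyme GFPT2 at 0.39, CXCL2 at 0.43 and the decoy receptor TNFRSF6B at 0.51. By comparison MT1X was at 0.50 from MT2A, MT1F at 1.01 and MT1E at 1.29, while MT1E and MT1F were at 0.41 from each other. CXCL1 had 270.1, 478 and 306 CPM in ACM and 111, 76.2 and 81.0 CPM in UCM. The order of its ACM cultures was that of MT2A, but it was picked for a like profile over these same cultures. Within UCM the order differed, with replicate 2 lowest for CXCL1 and replicate 3 lowest for MT2A. For MT1M the nearest profiles were those of ENSG00000290183 at 2.0, PDK4 at 2.03, PTGS2 at 3.79, IL1B at 4.17 and TNFAIP2 at 4.33. MT1M and ENSG00000290183 had no count in UCM, so their UCM values come only from the 0.5 count added. The distances to MT1M thus rest largely on that added count and are no measure of likeness in UCM. These distances describe 6 cultures that share the contrast between ACM and UCM.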

How the data were processed

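RNA from 3 ACM and 3 UCM cultures was sequenced as polyA-enriched paired libraries. According to the paper's methods, the authors used Trim Galore for trimming and STAR for alignment (GRCh38), and deposited RSEM's expected counts (estimated counts per gene, not scaled), TPM and effective lengths for each culture. Tool versions and annotation are not given in the sources used here, but identifiers of 61547 of 63140 genes matched GENCODE 44. A deposited table of the authors' DESeq2 fold changes and p-values was not used.

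Expected counts were rounded, filtered with filterByExpr and tested by edgeR 4.0.16 under R 4.3.3 (TMM, robust quasi-likelihood fit, condition only), after a test on simulated data. Replicates were wells of a plate, and nothing says that they came from separate passages, so p-values measure only the spread between these samples. Alternatives were DESeq2 1.42.0, limma 3.58.1 on log2 TPM, RLE, other filters, effective length offsets, a replicate block and each library left out. The members and lists were chosen with earlier results of these data known. By a set rule, the text names the 8 members, called list genes, regulators of the lists and SLC30A1. The rule also covers the 5 profiles nearest the most abundant member and the member of largest log2 FC, MT2A and MT1M. Other list genes and neighbours of the cluster are also named, outside this rule. The lists held 2 symbols that were not analysed here, from the copper and IL6 lists. STAT3, the regulator set for the IL6 list, therefore has no value here.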

Additional observations from a re-analysis of the deposited data

How the results depend on the processing

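The log2 FCs of MT1E, MT1F, MT1X and MT2A stayed positive in every alternative. That of MT1M could only be positive, because its UCM counts were 0, and its fitted values below are no measure of size. MT1M was called with DESeq2 (9.13, adjusted p = 2.09e-06), with every gene with a count kept (9.69), with limma-trend on log2 TPM (5.65 after adding 1, 8.94 after adding 0.1) and with the replicate block (9.66), and could not be fitted with at least 10 counts in every library. MT1X was not called with every gene with a count kept (2.26, adjusted p = 0.0507), nor MT2A with the replicate block (2.02, adjusted p = 0.0928), which also ended the calls of SLC39A14 (0.97, adjusted p = 0.0668) and IL6 (2.64, adjusted p = 0.111). With 1 library left out, log2 FCs lay between 8.67 and 10.05 for MT1M, 2.67 and 3.31 for MT1E, 2.47 and 3.16 for MT1F, 1.93 and 2.50 for MT1X and 1.78 and 2.23 for MT2A, and between 0 and 6 members were called higher. The ratio of MT1X to MT2A differed by 0.00 to 0.26 then, turning to 0 without UCM replicate 1.

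Genes called higher and lower, 484 and 320 here, were 762 higher with DESeq2, 1045 and 679 with every gene with a count kept, 230 and 132 or 234 and 138 with limma-trend (1 or 0.1 added), 258 and 136 with effective length offsets and 909 and 703 with the replicate block. Without 1 library they lay between 125 and 738 and between 62 and 572. With limma-trend (both) and with effective length offsets, 0 zinc genes were called lower, 0 glucocorticoid genes higher, 1 IL6 gene lower and 1 heat shock gene lower. With the replicate block, 1 zinc gene was higher, 1 copper gene lower and 2 glucocorticoid genes lower, the latter also with every gene with a count kept. Leaving out 1 library gave 1 to 2 zinc genes higher, 0 to 1 glucocorticoid genes higher and 1 to 3 lower, 1 to 3 IL6 genes higher and 0 to 3 heat shock genes lower. The cause of these changes was not tested. Whether the replicate numbers pair the cultures was not settled (correlations of deviations 0.284, 0.0353 and 0.148 for numbers 1, 2 and 3). ACM replicates 1 and 2 correlated best with the UCM culture of the same number, whereas ACM replicate 3 correlated best with UCM replicate 2 (0.165).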
